A study of Neurospora crassa with 22 samples.

Results

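The genes described here encode proton pumps and calcium transporters of *Neurospora crassa*. There were 8 of them among the 9730 genes of the RNA-seq table, and they were chosen by name: the plasma membrane proton pump gene *pma-1*, the V-ATPase subunit genes *vma-1*, *vma-2* and *vma-3*, the calcium ATPase genes *nca-1*, *nca-2* and *nca-3*, and the calcium/proton exchanger gene *cax*. Transcripts of a gene were summed. Levels are given in FPKM, the fragments of a transcript scaled to its length and to the size of the library. The test between strains required a mean of at least 1 FPKM over all libraries, which 7 of the 8 genes met, among 7208 tested genes. The exception was *nca-3*. RNA came from conidia grown for 5 hr in minimal medium, with 3 libraries of a wild-type strain and 3 libraries of a mutant of *hH1*, the gene of the linker histone H1. The labels give the strains only as wildtype and *hH1*. The study's strain list holds wild-type strains of both mating types. It also holds 1 *hH1* deletion strain and an *hH1* allele made by repeat-induced point mutation, and its text does not say which of them gave the RNA. The submitters speak of biological replicate experiments without saying what separated them, so p-values measure the spread between these libraries.

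Fungi drive nutrient uptake with protons. The plasma membrane H+-ATPase, a single-chain P-type pump that is phosphorylated in each cycle, exports protons and sets the membrane potential that proton-coupled transporters use. The V-ATPase is a rotary machine of many subunits that acidifies the vacuole. Its peripheral sector hydrolyzes ATP and its membrane sector carries protons. The vacuole in turn stores calcium, which enters through the calcium/proton exchanger at the expense of the proton gradient, while P-type calcium ATPases pump calcium out of the cytosol directly.

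The checks of the libraries bear on every comparison below. *hH1* itself read 266, 327 and 293 FPKM in wild-type libraries, against 9.35, 2.06 and 3.22 FPKM in mutant ones, so every mutant library lay below every wild-type library. The mating type gene *matA-1* had the value 0 in each wild-type library but 2.60, 1.75 and 3.83 FPKM in mutant ones. By this gene, the wild-type libraries were of mating type *a* and the mutant libraries of mating type *A*. Mating type and H1 therefore cannot be told apart in this comparison. Steps of low values put the depth at 5690000 to 11120000 fragments per library, on the assumption that libraries were scaled to their own totals. The first mutant library stood apart, with 2185 genes listed at 0 against 1577 to 1712 in the other libraries. Its own depth was put at 9080000 fragments, inside this range, but from 337 low values against 673 to 972 in the other libraries. Its log2 levels correlated at 0.9749 with the mean of the other libraries of its strain, against 0.9836 to 0.9881 for the other libraries. The strains differed as well. All genes summed to 551935 to 572043 FPKM in wild-type libraries and to 626049 to 639266 FPKM in mutant ones. The median of the tested genes was 15.88 to 16.97 FPKM in wild-type libraries and 14.4 to 15.84 FPKM in mutant ones. The labels call the tissue mycelium, and 5 genes of conidiation, used here as markers of conidia, summed to 11.3 to 16.7 FPKM in the wild type and to 14.8 to 18.7 FPKM in the mutant. Of these markers, *con-13* was listed at 0 in all 6 libraries, and none of the tested ones passed the test (2 of 5 were tested). Whether these differences between libraries have a part in the results was not tested.

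The highest of these genes was *pma-1* (NCU01680, LG II 2725887 to 2729848 of NC12), which encodes the proton pump of the plasma membrane. It was listed at 933, 1077 and 1105 FPKM in wild-type libraries, against 832, 940 and 1088 FPKM in mutant ones. In the wild type, 0.894% of all genes had a higher mean level. The mean was 1038 ± 92.6 FPKM in the wild type and 953 ± 129 FPKM in the mutant (SD, n = 3 each), and the groups overlapped, since the third mutant library lay above the first and second wild-type libraries. The log2 change was -0.13 with a 95% interval of -0.41 to 0.16 (adjusted p = 0.553, limma with Benjamini-Hochberg adjustment).

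**Figure D1:**
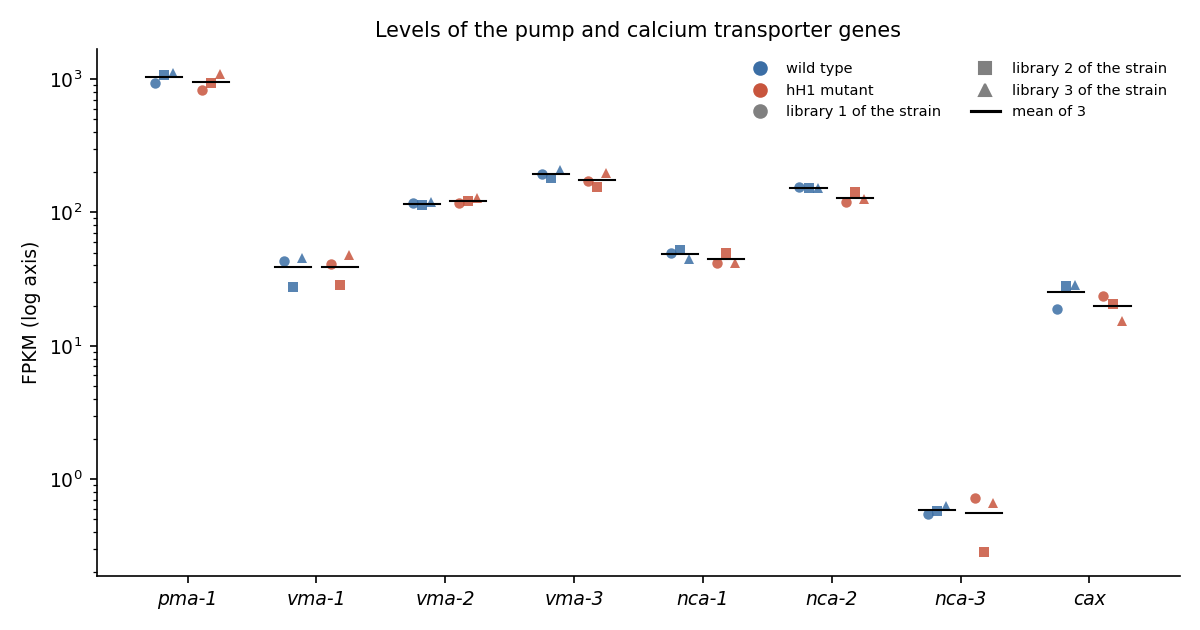
FPKM of the 8 pump and transporter genes on a log axis, for 3 wild-type (blue) and 3 *hH1* mutant (red) libraries, with the marker shape giving the library and the bar the mean of 3. *pma-1* lies between 832 and 1105 FPKM, *nca-3* below 1 FPKM, and the *nca-2* groups alone do not overlap.

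The catalytic A subunit of the V-ATPase, which hydrolyzes ATP, is encoded by *vma-1* (NCU01207, LG V 3236709 to 3239751). Its level was 43.5, 27.5 and 45.9 FPKM in wild-type libraries, against 40.8, 28.3 and 47.8 FPKM in mutant ones. The second library listed was the lowest in each strain, and the groups overlapped over nearly their whole range. The means were 39.0 ± 9.98 FPKM in the wild type and 39.0 ± 9.86 FPKM in the mutant (SD, n = 3 each). The log2 change was 0.002 with a 95% interval of -0.50 to 0.51 (adjusted p = 0.996, limma). This gene varied more between libraries of a strain than 85.4% of the tested genes, with a pooled SD of 0.385 on the log2 scale.

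The B subunit, which alternates with the A subunit in the head of the enzyme, is encoded by *vma-2* (NCU08515, LG II 3398179 to 3400651). Its level was 117, 113 and 120 FPKM in wild-type libraries, against 117, 121 and 129 FPKM in mutant ones. The groups overlapped. The means were 117 ± 3.51 and 122 ± 6.35 FPKM (SD, n = 3 each), with a log2 change of 0.07 and a 95% interval of -0.17 to 0.31 (adjusted p = 0.723, limma). In contrast to *vma-1*, it was among the steadiest genes, since 1.64% of the tested genes had a smaller SD (0.0605 on the log2 scale). Although both subunits occur in equal number in the enzyme, the level of *vma-2* was 2.61 to 4.26 times that of *vma-1* in the 6 libraries.

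The proteolipid c subunit forms most of the proton-carrying ring in the vacuolar membrane and is encoded by *vma-3* (NCU01332, LG V 3684275 to 3686333). It was listed at 196, 180 and 207 FPKM in wild-type libraries, against 172, 154 and 197 FPKM in mutant ones. The groups overlapped, and again the second library of each strain was the lowest. The means were 194 ± 13.7 and 174 ± 21.4 FPKM (SD, n = 3 each), with a log2 change of -0.16 and a 95% interval of -0.43 to 0.12 (adjusted p = 0.437, limma).

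To place these subunits among the rest of the enzyme, 11 further V-ATPase genes were read from a list of subunit symbols, and all 11 were tested. Of the 11, 1 was higher in the mutant, 0 were lower and 10 did not pass the test, while 1.73% of all tested genes were higher and 3.26% lower. The gene that rose was *vma-10*, which encodes the G subunit of the peripheral stalk. It was at 153, 158 and 185 FPKM in wild-type libraries, against 252, 216.5 and 254 FPKM in mutant ones. Every mutant library was above every wild-type library, as in 10.4% of all tested genes. The mean was 1.46 times as high in the mutant (log2 change 0.54, 95% interval 0.27 to 0.81, adjusted p = 0.0368, limma). The call was lost without the first or second wild-type library or any of the 3 mutant libraries (log2 change 0.49 to 0.62 over the 6 fits that left out 1 library, adjusted p from 0.0316 to 0.154).

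The partner of the G subunit in the peripheral stalk is the E subunit, encoded by *vma-4*. Its level was 158, 160 and 144 FPKM in wild-type libraries, against 150, 145 and 147 FPKM in mutant ones (log2 change -0.06, adjusted p = 0.728, limma). The level of *vma-10* was thus 0.968 to 1.28 times that of *vma-4* in the wild-type libraries and 1.5 to 1.73 times in the mutant libraries. The groups of this ratio did not overlap. Since *vma-10* was picked for its call and *vma-4* was nearly level, this repeats the change of *vma-10* and adds no result about the pair. The difference was not tested, because the pair was chosen after its values were seen.

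The other 9 V-ATPase genes gave log2 changes of both signs, from -0.30 for *vma-6*, the d subunit that links the rotor to the ring, to 0.60 for *vma-9*, the small membrane subunit e (adjusted p = 0.155 and 0.115, limma). Among all 14 V-ATPase genes, 2 had mutant libraries wholly above and 2 wholly below the wild-type libraries, which 10.4% and 21.8% of all tested genes had, and the median log2 change was 0.07 against -0.095 over all tested genes. These medians were not compared at like gene length, with which the change moved (described below). The longest of the 14 genes, *vma-4*, had 3204 bases. Tested genes from 3596 bases upward had a median of -0.28, and those of up to 1609 bases 0.12. Whether the V-ATPase median differs from that of genes of like length was not tested.

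The steady levels of these subunit genes differed more among themselves than between strains. Wild-type means reached from 25.9 ± 3.18 FPKM for *vma-8*, the D subunit of the rotor, to 194 FPKM for *vma-3* (SD, n = 3). The other proteolipid genes, *vma-11* for c′ and *vma-16* for c″, stood at 37.9 ± 10.6 and 60.9 ± 4.94 FPKM in the wild type (SD, n = 3 each). *vma-3* was 3.39 to 6.61 times as high as *vma-11* and 2.63 to 3.45 times as high as *vma-16* in the 6 libraries. In *Saccharomyces cerevisiae*, c is the proteolipid with the most copies per ring, but that is a count of protein, which RNA levels do not measure. When the 14 genes were ranked in each library, *vma-2* took rank 5 in all 6 libraries, while *vma-1* moved between ranks 11 and 13 and *vma-3* between ranks 1 and 3.

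**Figure D2:**
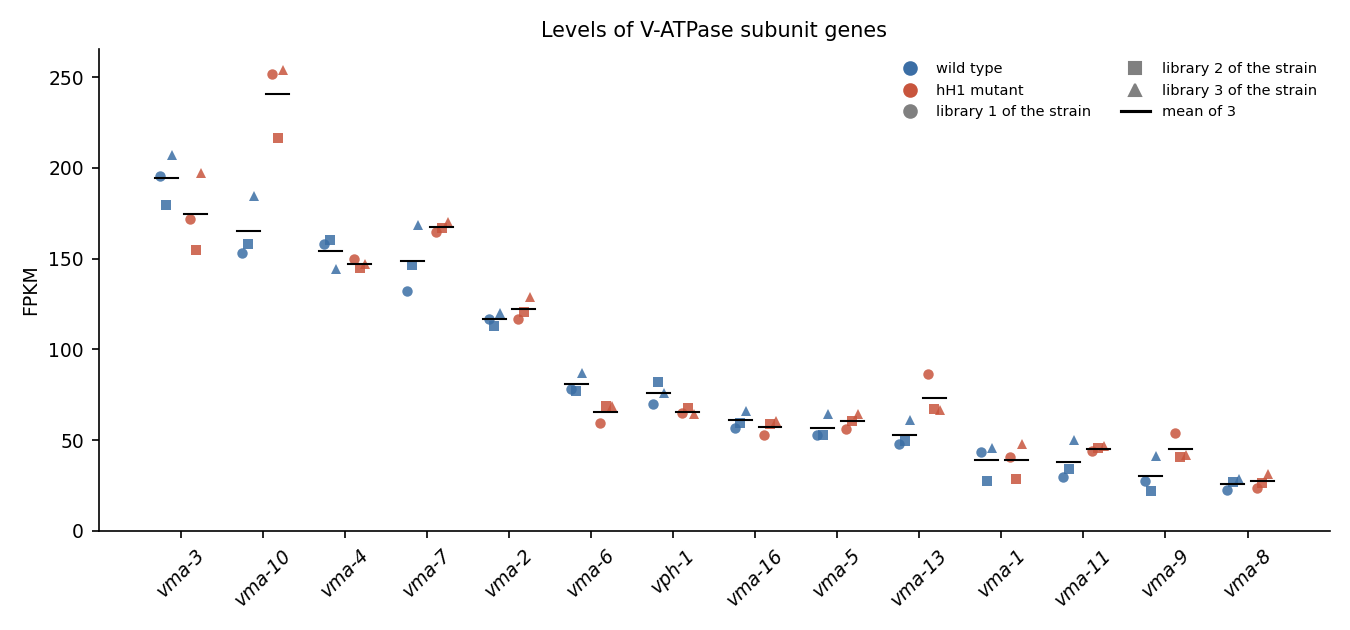
FPKM of 14 V-ATPase subunit genes, ordered by wild-type mean, for 3 wild-type (blue) and 3 *hH1* mutant (red) libraries, with bars at the mean of 3. *vma-10* is at 153 to 185 FPKM in the wild type and 216.5 to 254 FPKM in the mutant, and *vma-1* has its lowest value in library 2 of each strain.

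P-type calcium pumps remove calcium from the cytosol, and the 3 *nca* genes were expressed at very different levels. The highest was *nca-2* (NCU04736, LG VI 614672 to 620621), whose product belongs to the plasma membrane type of calcium ATPase. It was at 154, 152 and 153 FPKM in wild-type libraries, against 119, 141 and 127 FPKM in mutant ones. All 3 mutant values lay below all 3 wild-type values, as in 21.8% of all tested genes. The mean was 153 ± 1.23 FPKM in the wild type and 129 ± 11.2 FPKM in the mutant (SD, n = 3 each), a ratio of 0.844. The difference did not pass the test. The log2 change was -0.25 with a 95% interval of -0.49 to 0.003 (unadjusted p = 0.0525, adjusted p = 0.200, limma), and it became 0.08 (adjusted p = 0.700) when the trend of each library with gene length, described below, was removed.

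*nca-1* (NCU03305, LG I 5258847 to 5262474), which encodes a calcium ATPase related to the pump of the animal endoplasmic reticulum, was at 49.7, 51.9 and 45 FPKM in wild-type libraries, against 42.1, 50.0 and 42.0 FPKM in mutant ones. The groups overlapped through the second mutant library. The means were 48.9 ± 3.52 and 44.7 ± 4.61 FPKM (SD, n = 3 each), with a log2 change of -0.13 and a 95% interval of -0.42 to 0.16 (adjusted p = 0.550, limma).

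The third gene of this group, *nca-3* (NCU05154, LG VI 3552251 to 3556833), was listed at 0.547, 0.573 and 0.631 FPKM in wild-type libraries, against 0.723, 0.286 and 0.659 FPKM in mutant ones. With the whole gene span taken as its length, these values stood for at most an estimated 9.2 to 30.7 fragments per library. The lowest and the highest value both came from mutant libraries, and 77.6% of all genes had a higher wild-type mean. It was left out of the test by the filter on low values. Without that filter its log2 change was -0.04 (adjusted p = 0.916, limma), on a scale that understates the change of so low a gene. The 3 genes summed to 199 to 204 FPKM in the wild-type libraries and to 162 to 192 FPKM in the mutant libraries. Of these sums, *nca-2* held 74.3 to 77.1% in the wild type and 73.6 to 74.8% in the mutant, *nca-1* held 22.6 to 25.4% and 24.8 to 26.1%, and *nca-3* held 0.268 to 0.317% and 0.149 to 0.446%.

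*cax* (NCU07075, LG VI 243268 to 247124) encodes the exchanger that loads calcium into the vacuole in return for protons. Its summed level was 18.8, 28.3 and 28.4 FPKM in wild-type libraries, against 23.7, 20.4 and 15.5 FPKM in mutant ones. The groups overlapped because the first wild-type library was low. The means were 25.1 ± 5.49 and 19.9 ± 4.16 FPKM (SD, n = 3 each), with a log2 change of -0.32 and a 95% interval of -0.77 to 0.13 (adjusted p = 0.331, limma). It was the single gene of the 8 with more than 1 annotated transcript. The second transcript made up 10.2, 3.42 and 19.4% of the wild-type values and 0.00172, 12 and 34.2% of the mutant values. Reads shared by both transcripts are divided by estimation, and the wild-type shares of the second one lay inside the range of the mutant shares.

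Across the 7 tested genes, 0 passed the test at an adjusted p under 0.05, and 0 had an unadjusted p under 0.05. Of all 7208 tested genes, 4.99% passed (360 genes, limma) and 25.9% had an unadjusted p under 0.05. The groups of libraries did not overlap in 1 of the 7 genes, *nca-2*, against 32.3% of all tested genes. The fitted change was above 0 in 2 of the 7 genes, *vma-1* and *vma-2*, against 39.9% of all tested genes, and the median log2 change of the 7 genes was -0.13. The intervals were widest for *vma-1* and *cax* and narrowest for *vma-2*, so that a change of up to 0.31 on the log2 scale lay inside the interval of *vma-2* and one of -0.77 inside that of *cax*. A p that missed the threshold does not show that the strains expressed these genes alike.

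The median log2 change of all tested genes was -0.095 and moved to 0.01 when each library was centred on its median. Relative to this shift, the log2 change was -0.02 for *pma-1*, 0.11 for *vma-1*, 0.17 for *vma-2*, -0.05 for *vma-3*, -0.02 for *nca-1*, -0.14 for *nca-2* and -0.22 for *cax*, and again 0 of the 7 genes passed. Gene length moved with the change as well. With the tested genes cut by length into 5 equal groups, the median log2 change was 0.12 in the shortest group and -0.28 in the longest, from 3596 bases upward. *pma-1* (3962 bases), *nca-1* (3628 bases), *nca-2* (5950 bases) and *cax* (3857 bases) belonged to the longest group. When the trend was removed from each library, the log2 change was 0.12 for *pma-1*, 0.09 for *nca-1*, 0.08 for *nca-2* and -0.08 for *cax*, and 0 of the 7 genes passed. What produced the trend was not tested. *vma-10* was 2027 bases long, in the second shortest group with a median change of 0.02, and still passed after removal of the trend (log2 change 0.55, adjusted p = 0.0333, limma).

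**Figure D3:**
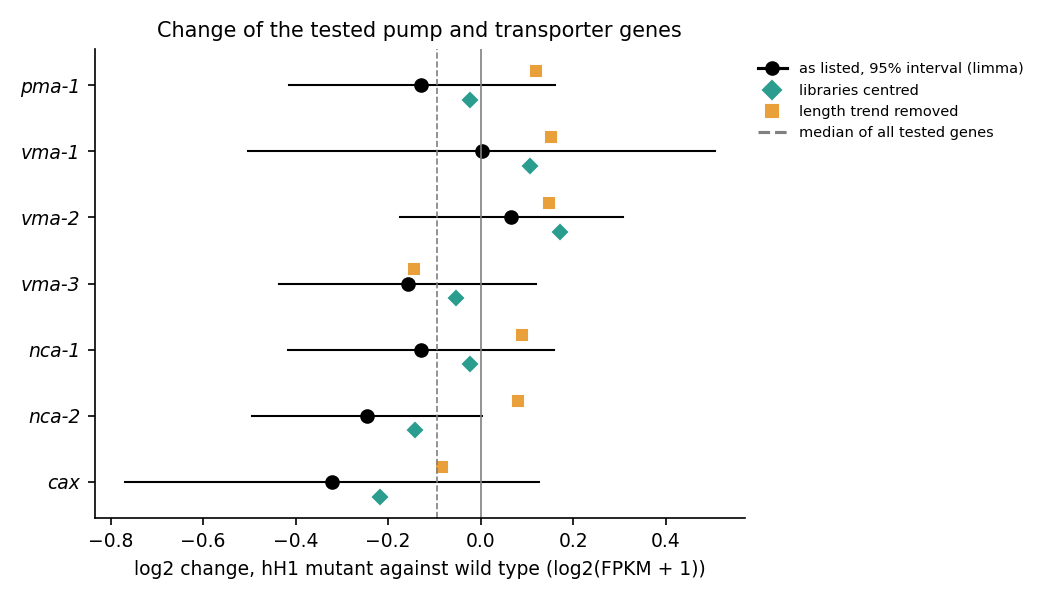
Log2 change of the 7 tested genes between *hH1* mutant and wild type on the log2(FPKM + 1) scale, with 95% intervals from limma (black), after centring each library (green diamonds) and after removal of the trend with gene length (orange squares). Every interval includes 0, and *pma-1*, *nca-1* and *nca-2* move from below 0 to above 0 when the length trend is removed.

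**Figure D4:**
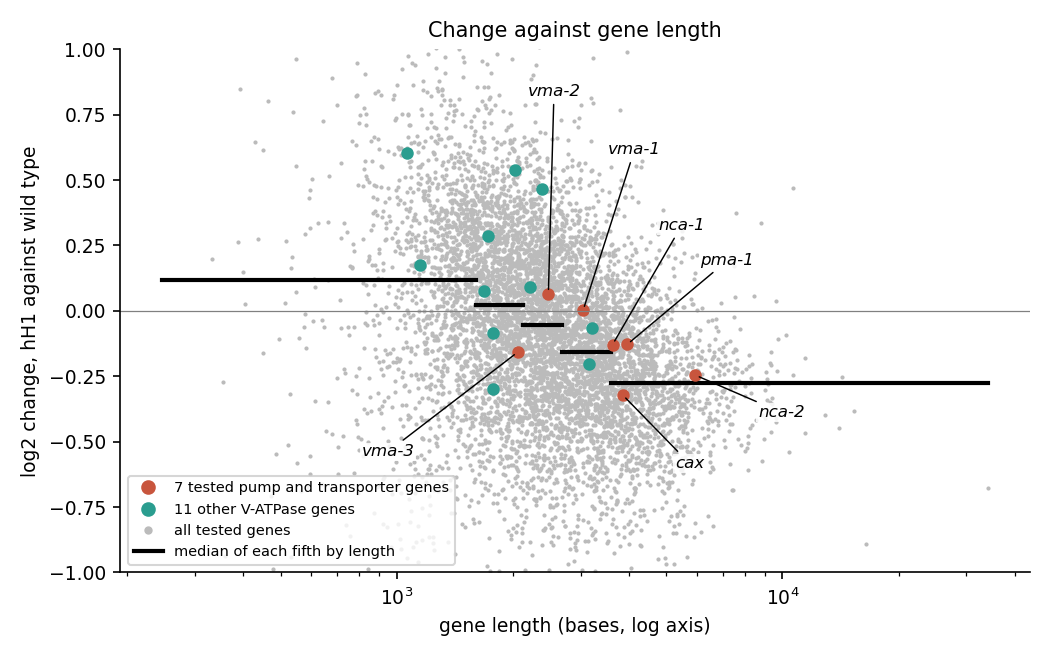
Log2 change of the tested genes against gene length in bases (log axis), with the 7 pump and transporter genes in red, 11 other V-ATPase genes in green and the median of each of the 5 length groups as a bar. The bars fall from 0.12 to -0.28, and 188 genes beyond a change of 1 in either direction are not drawn.

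A ratio of 2 genes within a library does not depend on how libraries were scaled to each other, so 6 ratios were compared between strains. The ratio of *nca-1* to *nca-2* was 0.323, 0.342 and 0.293 in the wild type and 0.352, 0.354 and 0.331 in the mutant, a difference of 0.12 on the log2 scale (exact permutation test, two-sided, p = 0.2, adjusted p = 0.9). The groups overlapped, since the third mutant library lay below the second wild-type library. The ratio of *vma-3* to *vma-1* was 4.49, 6.53 and 4.51 in the wild type and 4.21, 5.45 and 4.12 in the mutant (exact permutation test, two-sided, p = 0.5, adjusted p = 0.9). The other ratios, *vma-1* to *vma-2*, *vma-1* to *pma-1*, *nca-3* to *nca-2* and *cax* to *nca-2*, differed by -0.09 to 0.13 on the log2 scale with exact permutation p-values of 0.5 to 1. With 3 libraries against 3 the smallest p is 0.1, so these tests could not pass 0.05.

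In the wild type, the order of the levels per transcript length was *pma-1*, *vma-3*, *nca-2*, *vma-2*, *nca-1*, *vma-1*, *cax* and *nca-3*. The step from *pma-1* to *vma-3* was 4.77-fold to 6.09-fold in the 6 libraries, and that from *cax* to *nca-3* was 23.5-fold to 71.3-fold. *vma-3* was above *nca-2* in all 6 libraries, by 1.09-fold to 1.55-fold. In the wild type, the ranges of *nca-1* and *vma-1* overlapped, as did those of *vma-1* and *cax*, so these neighbours did not differ beyond their spread. *nca-1* was above *vma-1* in 4 of 6 libraries and *vma-1* above *cax* in 5 of 6. The ranges of *nca-2* and *vma-2* were apart in the wild type, with a ratio of 1.28 to 1.34, and overlapped in the mutant, with a ratio of 0.983 to 1.17. This ratio was not among those compared above, and its difference between strains was not tested. Without the length trend the log2 change was 0.08 for *nca-2* and 0.15 for *vma-2*, against -0.25 and 0.07 with it. By the root mean square difference between deviations from the gene mean over the 6 libraries, the gene most like *pma-1* was NCU01878 (0.0328 on the log2 scale), the gene most like *nca-2* was NCU00412 (0.0371), and the gene most like *vma-3* was *nst-3* of the sirtuin family (0.0315). NCU05771 was nearest to *vma-2* (0.0298), NCU09808 to *nca-1* (0.0261) and NCU04428 to *nca-3* (0.0381). For *vma-1* and *cax* even the nearest genes, NCU04237 and NCU17284, were farther away (0.0968 and 0.0844). This distance was not scaled to a gene's own spread between libraries. The pooled SD was 0.385 for *vma-1* and 0.312 for *cax* on the log2 scale, against 0.0605 to 0.166 for the other pump and transporter genes. For *nca-3* it was 0.165, on a scale that understates the spread of so low a gene. In FPKM its SD was 42.4% of its mean in the mutant, so it was not a steady gene, and its nearest gene says little. Steady genes lie near each other by this measure, so the distances cannot rank these genes by how closely another gene followed them. Since the profiles are short, such likeness describes these 6 libraries only.

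Other genes of ion pumping and calcium signaling were read from the same kind of list. Of 3 further cation ATPase genes, 0 passed the test, at adjusted p-values of 0.0692 to 0.866 (limma), and 2 had an unadjusted p under 0.05, where 4.99% and 25.9% of all tested genes did. *ena-1*, for a sodium ATPase, was at 88.6, 94.6 and 80.1 FPKM in wild-type libraries, against 37.6, 60.8 and 67.6 FPKM in mutant ones (log2 change -0.70, 95% interval -1.13 to -0.26, adjusted p = 0.0692, limma). Every mutant library was below every wild-type library, which 21.8% of all tested genes had. After removal of the length trend the log2 change was -0.39 (adjusted p = 0.229, limma). Without the first mutant library it was -0.44 (adjusted p = 0.1, limma). *pmr-1*, for the calcium and manganese pump of the secretory pathway, was at 20.6 ± 1.96 FPKM in the wild type and 19.9 ± 0.536 FPKM in the mutant (SD, n = 3 each).

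Of 8 further calcium genes, 1 rose, 0 fell and 7 did not pass the test, while 1.73% of all tested genes were higher and 3.26% lower in the mutant. The gene that rose was *cmd*, which encodes calmodulin, the calcium sensor that activates calcineurin and calmodulin-dependent kinases. It was at 71.4, 82.9 and 104 FPKM in wild-type libraries, against 128, 124 and 151 FPKM in mutant ones. Every mutant library was above every wild-type library, which 10.4% of all tested genes had. The mean was 1.56 times as high in the mutant (log2 change 0.65, 95% interval 0.31 to 0.99, adjusted p = 0.0408, limma). As for *vma-10*, the call was lost without the first or second wild-type library or any of the 3 mutant libraries (log2 change 0.52 to 0.79 over the 6 fits that left out 1 library, adjusted p from 0.0233 to 0.162). The other calcium genes, which encode the regulatory subunit of calcineurin, kinases, a channel partner and a phospholipase C, had adjusted p-values of 0.101 to 0.962 (limma). Of the 8 further calcium genes, 2 had mutant libraries wholly above and 1 wholly below the wild-type libraries, against 10.4% and 21.8% of all tested genes. An unadjusted p under 0.05 was reached by 3 of the 8 (limma), against 25.9% of all tested genes.

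**Figure D5:**
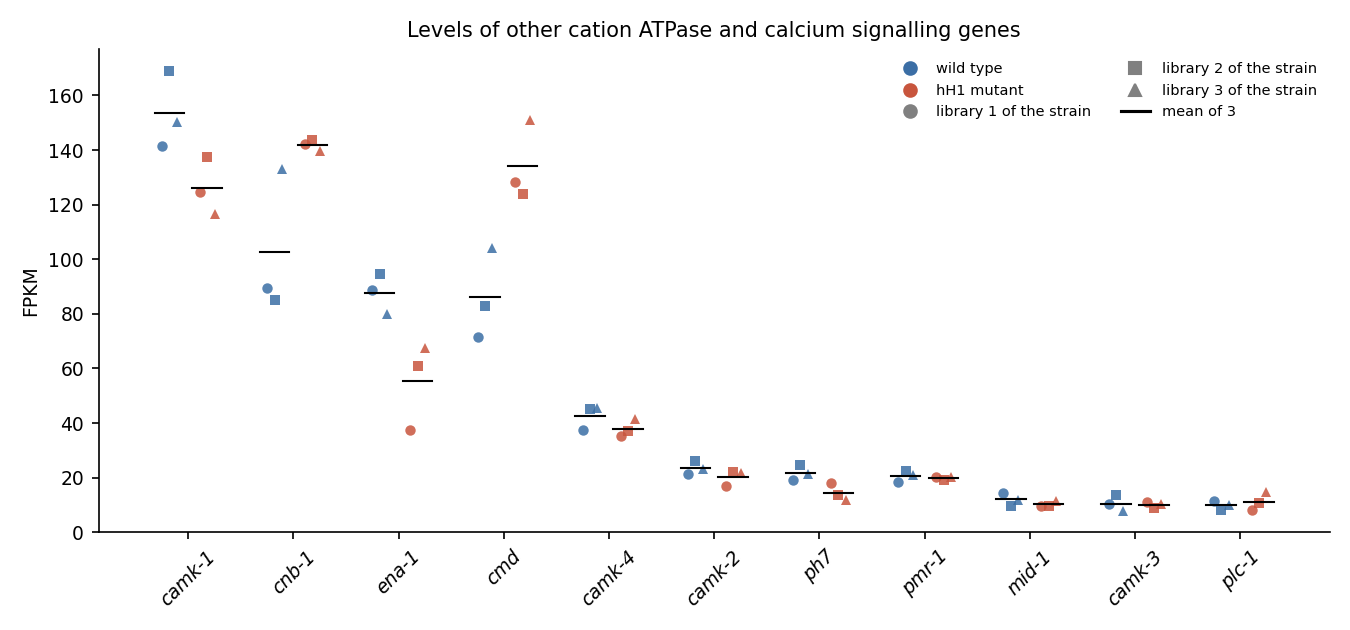
FPKM of 11 other cation ATPase and calcium signaling genes for 3 wild-type (blue) and 3 *hH1* mutant (red) libraries, with bars at the mean of 3. *cmd* is at 71.4 to 104 FPKM in the wild type and 124 to 151 FPKM in the mutant, while *ena-1* is at 80.1 to 94.6 and 37.6 to 67.6 FPKM.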

How the data were processed

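The authors aligned strand-specific, ribosome-depleted RNA-seq reads to the NC12 assembly with TopHat and estimated levels with Cufflinks. The submitters' processing notes name TopHat2 2.0.14 and Cuffnorm. The deposited FPKM values are per transcript, with replicates kept apart, and how libraries were scaled to each other is not given in the sources used here. A column name shows its strain and no label replicate number. Each column was taken as 1 library of that strain and named by its order in the table, and 0 columns were left unused. The ChIP-seq and MNase-seq samples were not analysed here.

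The 10785 transcripts were summed to 9730 genes. Symbols, positions and lengths came from a RefSeq gene table of NC12 that listed 9729 of them. Genes averaging 1 FPKM or more were compared between strains on the log2(FPKM + 1) scale with limma 3.58.1 (lmFit, eBayes with a trend, two-sided, Benjamini-Hochberg over all tested genes, threshold 0.05) in R 4.3.3. Figures and depths were made with Python 3.11.15. Depth was estimated from genes with 1 transcript, as the number of fragments at which the most low values came out within 0.1 of a whole number after 205 bases were subtracted from each length. At that depth 39.7 to 43.2% of 337 to 972 low values per library were whole, against a median of 17.5 to 19.0% at other depths. The limma fit, the removal of the length trend and the depth estimate were tested on simulated data.

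The 8 genes and the lists were chosen with earlier results of these data known. Of the symbols listed, 14 of 16 V-ATPase, 7 of 8 cation ATPase, 9 of 20 calcium and 5 of 6 conidial symbols led to a gene of their own in the gene table. Genes named are the 8, *hH1*, *matA-1* (added as a check of mating type), listed genes that were called or where few were left, a few more listed genes chosen after their values were seen, and for each of the 8 the tested gene with the smallest root mean square difference between per-library deviations from the gene mean. Alternatives covered the pseudocount, the filter, single transcripts, centring, quantile normalization, the variance trend, robust moderation, gene length and each library left out.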

Additional observations from a re-analysis of the deposited data

How the results depend on the processing

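Of the 7 tested genes, 0 passed under any of the 15 alternatives. With the length trend removed, the log2 change turned to 0.119 for *pma-1*, 0.09 for *nca-1* and 0.081 for *nca-2*. *vma-1* ranged from -0.224 to 0.21 over the fits that left out 1 library, being -0.224 without the second wild-type, -0.046 without the first mutant and -0.157 without the third mutant library. The other tested genes kept their direction when 1 library was left out, but some moved by over 1.5 times. *pma-1* went from -0.128 to -0.034 without the first and -0.227 without the third mutant library, to -0.203 and -0.081 without the first and the third wild-type library, and to -0.329 after quantile normalization. *cax* went from -0.322 to -0.511 without the first wild-type library and to -0.161 without the third mutant library, *vma-3* from -0.158 to -0.248 without the third and -0.074 without the second mutant library, *nca-1* from -0.129 to -0.21 without the second mutant library and -0.085 without the second wild-type library, and *vma-2* from 0.066 to 0.026 without the third mutant library. *nca-2* ranged from -0.312 to -0.191.

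The count of all changed genes, 360, became 188 with every detected gene tested, 45 with each transcript tested on its own, 135 without the variance trend and 209 without the length trend, and ranged from 29 (without the first wild-type library) to 372 when 1 library was left out. It was 119 without the second wild-type library and 217, 111 and 135 without the first, the second and the third mutant library. The share of calls higher in the mutant went from 34.7% to 66.7% after centring, 47.7% after quantile normalization and 56.9% without the length trend. The cause was not tested.

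The 2 calls among the other listed genes, *vma-10* and *cmd*, became 0 with every detected gene tested, with single transcripts and without the variance trend, and 0 to 4 when 1 library was left out. *cnb-1* joined them after centring. They were 4 without the third wild-type library (with *cnb-1* and *vma-9*) and 1 without the first mutant library (*ph7*, lower).

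Among the ratios, *vma-1* to *vma-2* turned from -0.064 to 0.006 without the length trend, while *nca-1* to *nca-2* went from 0.116 to 0.011, *nca-3* to *nca-2* from 0.068 to 0.555, *vma-3* to *vma-1* from -0.161 to -0.289, *vma-1* to *pma-1* from 0.13 to 0.043 and *cax* to *nca-2* from -0.089 to -0.17. Over the fits that left out 1 library *vma-1* to *vma-2* ranged from -0.274 to 0.141 on the log2 scale, *vma-3* to *vma-1* from -0.29 to 0.017, *vma-1* to *pma-1* from -0.131 to 0.338, *nca-3* to *nca-2* from -0.233 to 0.558 and *cax* to *nca-2* from -0.291 to 0.069. *nca-1* to *nca-2* ranged from 0.056 to 0.168.

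No paired analysis was possible because the columns carry numbers that are not the replicate numbers of the labels. Same-numbered columns had deviations correlated at -0.013, 0.035 and 0.112 across genes.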
